A study of Mus musculus with 2 samples.

Results

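Claudins, connexins and aquaporins are the membrane proteins that seal, couple and hydrate an epithelium, and 8 of their genes were described here across cycling cells of the mouse corneal epithelium: the claudins Cldn1, Cldn4 and Cldn7, the connexins Gja1, Gjb2 and Gjb6, and the aquaporins Aqp3 and Aqp5. They were chosen by name from the 31053 genes of the count table, with earlier results of these data known. The cells came from corneas of CycB1-GFP mice, in which green fluorescent protein reports Cyclin B1, a protein that accumulates as a cell approaches division. The epithelium was peeled from each cornea, and live GFP-positive cells were sorted and profiled with 10x Chromium 3′ v3 single-cell RNA-seq. All cells belonged to 1 group with 2 replicates, called library 1 and library 2 here, so no treatment or genotype could be compared, and cells outside the GFP gate were not seen. The labels name neither the age, the sex nor the number of mice. The p-values measure only how evenly differences between groups of cells repeat in these 2 libraries, a spread that may be technical.

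Counts were UMIs (unique molecular identifiers, each standing for a captured RNA molecule). Of 6752 barcodes, 6188 passed the filters, 3187 in library 1 with a median of 5571 UMIs per cell and 3001 in library 2 with a median of 5886. Cells were sorted into 4 classes by their keratin RNA. The share of Krt12, the keratin of differentiated corneal epithelium, in the sum of Krt12 and Krt15 UMIs, with Krt15 a keratin of limbal and conjunctival basal cells, was above 0.8 in the Krt12 class (2304 and 1821 cells in libraries 1 and 2), between 0.4 and 0.8 in the mixed class (161 and 164 cells) and under 0.4 in the rest. Those under 0.4 formed the mucosal class if they held at least 3 UMIs of the mucosal keratins Krt4, Krt13 and Krt19 (230 and 402 cells), and otherwise the Krt15 class (433 and 557 cells). Another 59 and 57 cells held fewer than 5 UMIs of Krt12 and Krt15 and were left unclassed. These keratins define the classes and are not results.

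Claudins span the membrane at tight junctions and decide which ions and solutes pass between cells. Connexins assemble into hexameric channels that dock with those of a neighbouring cell and let ions and small metabolites through. Aquaporins are membrane pores for water, and Aqp3 also passes glycerol. In the cornea, tight junctions close the outermost cell layer, gap junctions couple the layers below, and Aqp3 and Aqp5 carry water across the epithelium and are linked to its repair after wounding.

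The sequences just upstream of 5 members are shown because 4 of these genes were called along the surface axis described later, 1 of them in the opposite direction, and Cldn4 had the largest fold on it. Aqp5, also called there, is not shown, since its window lies almost wholly within the gene as GENCODE annotates it. Each is the 250 bases before the start that RefSeq gives first (mouse build GRCm38.p6), 5′ to 3′ on the gene's strand, with capitals marking any match on either strand. The motifs searched were the TATA box in the form TATAAA, the AP-1 site in the form TGANTCA, the GC box in the form GGGCGG, the KLF-type site CCACCC, the grainyhead-like site AACCGGTT and the box known as CCAAT.
Cldn4 (chr5:134946935-134947184, minus strand): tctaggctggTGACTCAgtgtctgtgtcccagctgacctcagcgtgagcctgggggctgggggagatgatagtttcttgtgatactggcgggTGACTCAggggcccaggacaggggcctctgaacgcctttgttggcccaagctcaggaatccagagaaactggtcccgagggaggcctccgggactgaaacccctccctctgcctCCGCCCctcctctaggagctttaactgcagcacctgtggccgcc
Cldn7 (chr11:69964529-69964778, plus strand): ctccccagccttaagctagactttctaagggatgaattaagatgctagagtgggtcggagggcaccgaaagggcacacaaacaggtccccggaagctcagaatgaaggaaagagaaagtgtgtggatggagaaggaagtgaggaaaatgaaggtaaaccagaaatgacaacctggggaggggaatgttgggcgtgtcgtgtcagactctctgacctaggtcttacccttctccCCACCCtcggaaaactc
Gjb2 (chr14:57104703-57104952, minus strand): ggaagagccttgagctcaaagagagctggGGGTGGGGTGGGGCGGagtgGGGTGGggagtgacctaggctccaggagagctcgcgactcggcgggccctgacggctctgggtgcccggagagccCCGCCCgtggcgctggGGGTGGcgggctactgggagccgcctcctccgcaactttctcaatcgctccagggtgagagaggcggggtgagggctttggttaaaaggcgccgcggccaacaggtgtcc
Gja1 (chr10:56377050-56377299, plus strand): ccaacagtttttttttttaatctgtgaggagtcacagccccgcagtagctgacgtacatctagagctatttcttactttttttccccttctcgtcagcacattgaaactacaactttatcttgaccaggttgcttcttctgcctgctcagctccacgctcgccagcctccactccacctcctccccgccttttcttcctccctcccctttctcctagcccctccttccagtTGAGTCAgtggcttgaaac
Aqp3 (chr4:41098184-41098433, minus strand): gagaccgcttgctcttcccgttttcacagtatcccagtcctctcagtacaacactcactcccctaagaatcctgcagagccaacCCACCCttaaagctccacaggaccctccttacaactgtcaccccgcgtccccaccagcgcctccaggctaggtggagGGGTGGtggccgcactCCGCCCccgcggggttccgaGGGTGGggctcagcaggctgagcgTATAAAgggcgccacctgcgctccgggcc
Of 32851 mouse promoters of this length, 6.75% held TGANTCA, 32.7% held GGGCGG, 28.1% held CCACCC, 12.4% held TATAAA, 33.8% held CCAAT and 0.116% held AACCGGTT. Cldn4 held 2 matches to TGANTCA and 1 to GGGCGG. Gja1, the member called lower in the surface-rich cells, held 1 match to TGANTCA. Gjb2 held 2 matches to GGGCGG and 4 to CCACCC, of which some overlapped each other in a G-rich run. Aqp3 held 1 TATAAA, 1 GGGCGG and 3 CCACCC matches, and Cldn7 held 1 CCACCC match. These are matches of letters and not sites of binding.

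The libraries stood apart in several ways that touch the members. The Krt12 class was 72.3% of library 1 and 60.7% of library 2. RNA of immediate early genes, which handling or stress can raise among other signals, summed to 6074 CPM in library 1 and 2598 in library 2 (CPM, a gene's UMIs per 1000000 UMIs of the cells pooled), and RNA of the wound keratins Krt16, Krt6a and Krt6b to 2115 and 1222 CPM. The cause of these differences was not tested. Markers of keratocytes and vascular endothelium stayed at or under 1.39 CPM in each of the 4 classes, and of 5 goblet cell markers only Agr2 was detected, with Muc5ac, Muc5b, Tff1 and Spdef at 0. Immune markers summed to 62.6 CPM in the Krt15 class of library 2 against 2.78 CPM in library 1. Only 5 barcode sequences occurred in both libraries. Doublets could not be removed with confidence, because the caller marked 5 cells (0.0808%).

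Over all kept cells, 6 of the 8 members had CPM values whose counting intervals did not overlap between the libraries. Among members above 1 CPM in both, the widest ratio was that of Cldn4, at 101 CPM in library 1 and 46.0 in library 2. Gja1 followed at 252 and 184 CPM. Cldn7 (283 and 324 CPM), Aqp3 (469 and 494 CPM) and Aqp5 (1805 and 2212 CPM) were higher in library 2, and Cldn1 (13.4 and 11.6 CPM) and Gjb2 (49.1 and 42.3 CPM) in library 1. Levels of different genes are not ranked against each other, since 3′ capture differs between transcripts. Cells thinned to 2000 UMIs each gave 3 of 8 members whose share of cells with a UMI did not overlap. With 1 sample per library these differences have no test. Neither count was made over all genes, so they are not read as a trait of the members.

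**Figure D1:**
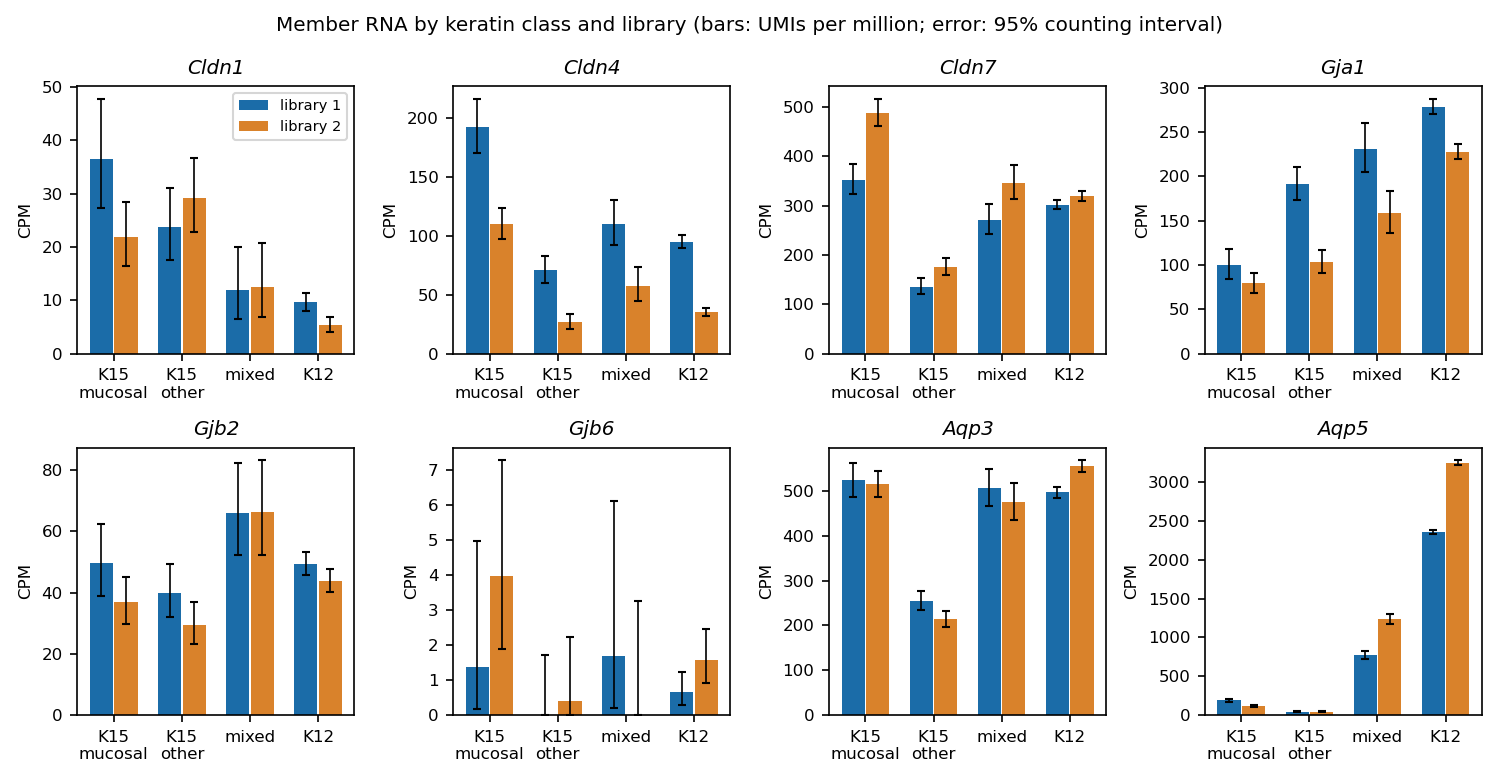
RNA of each member (CPM) in the mucosal class (K15 mucosal), the Krt15 class (K15 other), the mixed class and the Krt12 class (K12), by library, with 95% Poisson intervals that cover counting error only. Aqp5 was at 2354 and 3251 CPM in the Krt12 class and at 41.3 and 44.3 CPM in the Krt15 class, while Cldn1 was lowest in the Krt12 class in both libraries.

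The Krt15 class was compared with the Krt12 class to ask how the members differ between cells with a limbal or conjunctival keratin and cells with the corneal keratin. Cldn1 rose in the Krt15 class, and Cldn4, Cldn7, Gja1, Gjb2, Aqp3 and Aqp5 fell. All 7 members that passed the filter on low counts were thus called (edgeR quasi-likelihood test on UMI sums per library and class, Benjamini-Hochberg adjusted over all genes, threshold 0.05), while Gjb6 was too sparse to test. In this comparison 30.2% of all 10407 genes tested were called, 15.3% higher and 14.9% lower. The members' median log2 fold change was -0.86 and their median size 1.04, against 0.28 for the median size over all genes. Because the members were chosen with earlier results of these data known, this contrast is a description and not a test.

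Cldn1 (chr16:26356642-26371841, minus strand, mouse build GRCm38) encodes a barrier-forming claudin needed for the water barrier of skin. It stood at 23.6 and 29.1 CPM in the Krt15 class and at 9.60 and 5.37 CPM in the Krt12 class of libraries 1 and 2, so the classes did not overlap. This was a log2 fold change of 1.81 (SE 0.25, edgeR adjusted p = 7.32e-06), from 1.25 in library 1 and 2.42 in library 2. After thinning, 5.02% and 4.81% of Krt15 class cells had a Cldn1 UMI, against 1.62% and 0.986% of Krt12 class cells, with exact 95% intervals that did not overlap between the classes. No cell of a small immune-marked set of 9 had a Cldn1 UMI, which allows a share of up to 33.6% (exact 95% interval). Background from free RNA was thus not measured closely enough to set beside these shares. Its level in the mucosal class, 36.5 and 21.8 CPM, overlapped that of the Krt15 class.

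Cldn7 (chr11:69964779-69967885, plus strand) encodes a claudin that also lies along the lateral membrane, where it binds the adhesion molecule EpCAM. It was at 136 and 176 CPM in the Krt15 class and at 302 and 319 CPM in the Krt12 class, a log2 fold change of -1.04 (SE 0.096, edgeR adjusted p = 5.17e-09). The order of its levels was mucosal (353 and 489 CPM), then mixed (272 and 346 CPM) and Krt12, which overlapped, then Krt15. Cldn4 (chr5:134945119-134946934, minus strand) encodes a sealing claudin that limits passage of cations. Its levels were 70.5 and 26.7 CPM in the Krt15 class and 94.96 and 35.3 CPM in the Krt12 class, so the libraries differed more than the classes did and the ranges overlapped. Within each library it was lower in the Krt15 class, by -0.48 and -0.42 on the log2 scale, and the fit gave -0.45 (SE 0.15, edgeR adjusted p = 0.0313). This call was lost with cells thinned to 2000 UMIs (-0.019), with DESeq2 and with 5 mucosal keratin UMIs as the class limit. With cells holding a wound keratin UMI left out, the value was 0.46.

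Gja1 (chr10:56377330-56402513, plus strand) encodes the most widely expressed connexin. It was at 191 and 103 CPM in the Krt15 class against 279 and 228 CPM in the Krt12 class, and the classes did not overlap. The log2 fold change was -0.86 (SE 0.11, edgeR adjusted p = 2.65e-06), from -0.59 in library 1 and -1.16 in library 2. Gjb2 (chr14:57098600-57104702, minus strand), whose human counterpart is a common gene of inherited deafness, lay at 39.9 and 29.5 CPM against 49.3 and 43.8 CPM, a log2 fold change of -0.47 (SE 0.14, edgeR adjusted p = 0.0135). Without the library block the Gja1 call was lost (-0.83). The Gjb2 call was lost with DESeq2, with thinned cells and without wound keratin cells. Its neighbour Gjb6 (chr14:57123303-57133611, minus strand), another connexin of skin and inner ear, gave 42 UMIs over the 4 classes: 9 and 18 in the Krt12 class, 2 and 10 in the mucosal class, 2 and 0 in the mixed class, and 0 and 1 in the Krt15 class.

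Aqp5 (chr15:99590782-99594829, plus strand) encodes the water-selective channel of glands and cornea, and it differed more than any other member. The Krt12 class held 2354 and 3251 CPM and the Krt15 class 41.3 and 44.3 CPM, a log2 fold change of -6.06 (SE 0.48, edgeR adjusted p = 0.00410), or 66.8-fold. It ranked 30 by size among all genes tested. After thinning, 90.5% and 94.5% of Krt12 class cells had an Aqp5 UMI, against 6.70% and 7.01% of Krt15 class cells. Without thinning the Krt15 class had 15.2% and 15.4% at median depths of 4598 and 4602 UMIs, with a mean of 1.35 and 1.29 UMIs per cell with a UMI. In 9 cells with at least 10 immune marker UMIs (a set chosen after the data were seen), which should lack the gene, 2 had an Aqp5 UMI (22.2%, exact 95% interval 2.81% to 60.0%, median depth 2512 UMIs). With 9 cells this range is too wide to tell expression from background of free RNA. The share in the Krt15 class is therefore read as neither.

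Aqp3 (chr4:41092722-41098183, minus strand), the water and glycerol channel of basal and lateral membranes, stood at 255 and 213 CPM in the Krt15 class and at 497 and 555 CPM in the Krt12 class. The log2 fold change was -1.21 (SE 0.087, edgeR adjusted p = 3.25e-11), and the classes did not overlap. Its UMIs were found in 36.8% and 30.9% of thinned Krt15 class cells and 60.7% and 64.5% of thinned Krt12 class cells. Its levels in the mucosal class (524 and 515 CPM) and the mixed class (506 and 475 CPM) overlapped those of the Krt12 class.

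Among 31 other tight junction genes, 21 were tested and 7 rose and 2 fell in the Krt15 class. Cldn3, a barrier claudin, rose most, from 7.80 and 10.9 CPM in the Krt12 class to 105 and 133 CPM in the Krt15 class (log2 fold change 3.63, SE 0.12, edgeR adjusted p = 6.18e-18). It stood at 192 and 250 CPM in the mucosal class and at 51.6 and 79.7 CPM in the mixed class, so its order was the reverse of that of Aqp5 except that the mucosal class lay highest. Lsr, a tricellular junction protein, rose by 0.94, and Magi3, a scaffold, by 0.82. Among those that fell was Pmp22, a membrane protein of junctions and myelin, with a log2 fold change of -0.88. Of 15 other gap junction genes, 4 were tested and 3 fell. None of 9 other aquaporins passed the filter, and Aqp2, the most seen of them, had 53 and 70 UMIs in the Krt12 class and 0 in the Krt15 and mucosal classes. Of 22 desmosome and adherens genes, 21 were tested: the cadherins Cdh3 (2.05) and Cdh1 (0.74) were among the 5 that rose, and the desmosomal Pkp3 (-0.84) and Dsc3 (-0.70) among the 10 that fell.

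The class limits cut a continuous measure, so the members were also followed in bins of 0.1 of the Krt12 share. Most cells lay at its ends, with 436 and 820 cells in the lowest bin and 2184 and 1717 in the highest. Aqp5 went from 29.4 and 45.0 CPM in the lowest bin to 2393 and 3317 CPM in the highest. Between 0.5 and 0.6 it was at 955 and 856 CPM, and between 0.8 and 0.9 at 1708 and 2284 CPM, between the ends in both libraries. The rise of Aqp5 was not steady from bin to bin. In library 1 it was at 704 CPM between 0.6 and 0.7. In library 2 it was at 787 CPM between 0.3 and 0.4 and at 323 CPM between 0.4 and 0.5. Gja1 went from 141 and 89.5 CPM in the lowest bin to 282 and 231 CPM in the highest. Cells from both Krt15-dominant classes share the lowest bins, and bins between 0.2 and 0.8 held 27 to 64 cells per library, so their intervals are wide. Doublets of a Krt12 and a Krt15 cell would also fall in the middle bins, and their part in these values was not tested.

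**Figure D2:**
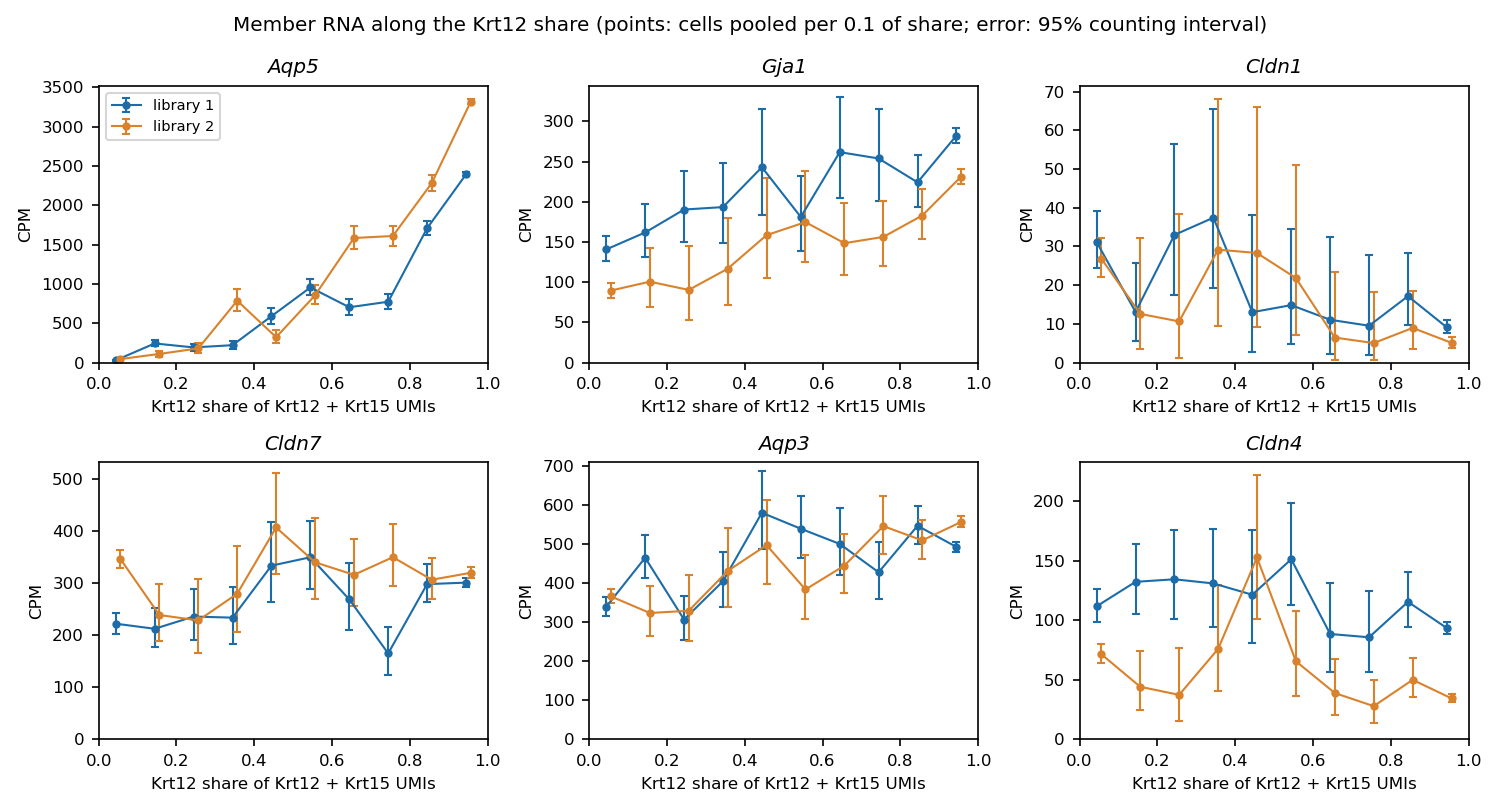
RNA of 6 members (CPM, 95% counting intervals) in cells pooled by their Krt12 share of Krt12 and Krt15 UMIs, in steps of 0.1, by library. Aqp5 lies highest in the last bin, at 2393 and 3317 CPM, and Gja1 lies higher in library 1 than in library 2 in each bin.

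The mixed class was compared with the Krt12 class to see whether cells with both keratins already differ. Of the 7 tested members 2 were called, Gja1 lower and Gjb2 higher, against 7.28% of all genes tested (4.49% higher and 2.8% lower). Gja1 was at 231 and 159 CPM against 279 and 228 CPM, with a log2 fold change of -0.41 (SE 0.11, edgeR adjusted p = 0.0311) and overlapping ranges. Gjb2 was at 66.0 and 66.4 CPM against 49.3 and 43.8 CPM, with a log2 fold change of 0.49 (SE 0.15, edgeR adjusted p = 0.0414). Both calls were lost with DESeq2, with at least 10 keratin UMIs per cell and with thinned cells. Doublets of a Krt12 and a Krt15 cell would fall in this class, whose median doublet score, 0.0552 and 0.0566, was the highest of the classes. With the top 3% of doublet scores left out, 141 and 125 mixed cells remained and both calls held, with Gja1 at -0.50 and Gjb2 at 0.61. The caller behind these scores marked only 5 cells in all, so doublets may remain among the cells kept.

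Aqp5 in mixed cells was at 769 and 1235 CPM, below the Krt12 class and above the Krt15 class in both libraries. Its log2 fold change from the Krt12 class, -1.50 (95% interval -2.63 to -0.38), did not pass the threshold in edgeR (adjusted p = 0.170) and passed it in DESeq2 and without wound keratin cells, the adjusted p ranging from 2.62e-05 to 0.371 over the alternatives. Cells with an Aqp5 UMI after thinning made up 46.2% and 60.5% of the class, between the 90.5% and 94.5% of Krt12 cells and the 6.70% and 7.01% of Krt15 cells. For the other members the intervals were -0.097 to 1.46 for Cldn1, 0.060 to 0.73 for Cldn4, -0.23 to 0.17 for Cldn7 and -0.29 to 0.064 for Aqp3. Without wound keratin cells Cldn7 was at -0.74 and called, and the calls for Gja1 (-0.54) and Gjb2 (0.27) were lost. Cldn1 was called at 1.07 with share limits of 0.3 and 0.9. Of the other tight junction genes Cldn3 (2.79) and Lsr (0.63) rose and Pmp22 (-1.02) fell. Among the cadherins Cdh3 (1.32) and Cdh1 (0.59) rose.

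The mucosal class was compared with the Krt15 class to see what goes with the mucosal keratins. Cldn4, Cldn7 and Aqp3 rose and Gja1 fell, 4 calls among the 7 tested members against 11.5% of all genes tested (6.75% higher and 4.74% lower). Cldn4 was at 192 and 110 CPM against 70.5 and 26.7 CPM, with a log2 fold change of 1.75 (SE 0.16, edgeR adjusted p = 3.01e-07). Cldn7, at 353 and 489 CPM against 136 and 176 CPM, rose by 1.46 (SE 0.10, edgeR adjusted p = 1.97e-10). Aqp3, at 524 and 515 CPM against 255 and 213 CPM, rose by 1.18 (SE 0.089, edgeR adjusted p = 6.26e-10). None of these 3 members overlapped between the classes. Without the library block the Cldn4 call (1.66) was lost, as was that of Gja1 (-0.70).

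Gja1 was at 99.9 and 79.2 CPM in the mucosal class and 191 and 103 CPM in the Krt15 class, with a log2 fold change of -0.64 (SE 0.13, edgeR adjusted p = 0.00182), from -0.90 and -0.34 in the libraries, and the classes did not overlap. Its share of thinned cells with a UMI was 13.4% and 13.1% in the mucosal class, 26.3% and 19.0% in the Krt15 class and 41.2% and 34.2% in the Krt12 class. Aqp5 was at 189 and 114 CPM against 41.3 and 44.3 CPM, a log2 fold change of 1.83 (95% interval 0.27 to 3.38) that missed the threshold in edgeR (adjusted p = 0.164, from 0.000761 to 0.986 over the alternatives). Its UMIs were uneven between mucosal cells: 22.6% and 21.6% of cells had any, with a mean of 5.27 and 3.32 and up to 69 and 66 UMIs per such cell, and 14 and 20 cells had 3 or more. The intervals were -0.45 to 0.64 for Cldn1, with opposite signs in the libraries, and -0.024 to 0.69 for Gjb2.

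Of the 21 tested tight junction genes 9 rose, including Tjp3 (1.15), Cldn3 (0.92) and Tjp1 (0.52), and 2 fell, including Pmp22 (-1.25). Of 4 tested gap junction genes 3 rose. Of 21 tested desmosome and adherens genes 13 rose and none fell, with Nectin4 (1.90), Dsc2 (1.42), Pkp1 (0.91) and Perp (0.90) named by the rule. Wound keratins, of which Krt6a also marks conjunctiva, moved with the class and summed to 3367 and 2828 CPM in mucosal cells and 654 and 460 CPM in Krt15 cells. Without cells holding any wound keratin UMI only 26 and 33 mucosal cells were left and no member was called, with Cldn4 at 0.91, Cldn7 at 0.73, Aqp3 at 0.50 and Gja1 at -0.89. At that size 5 genes in all were called higher and 0 lower.

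**Figure D3:**
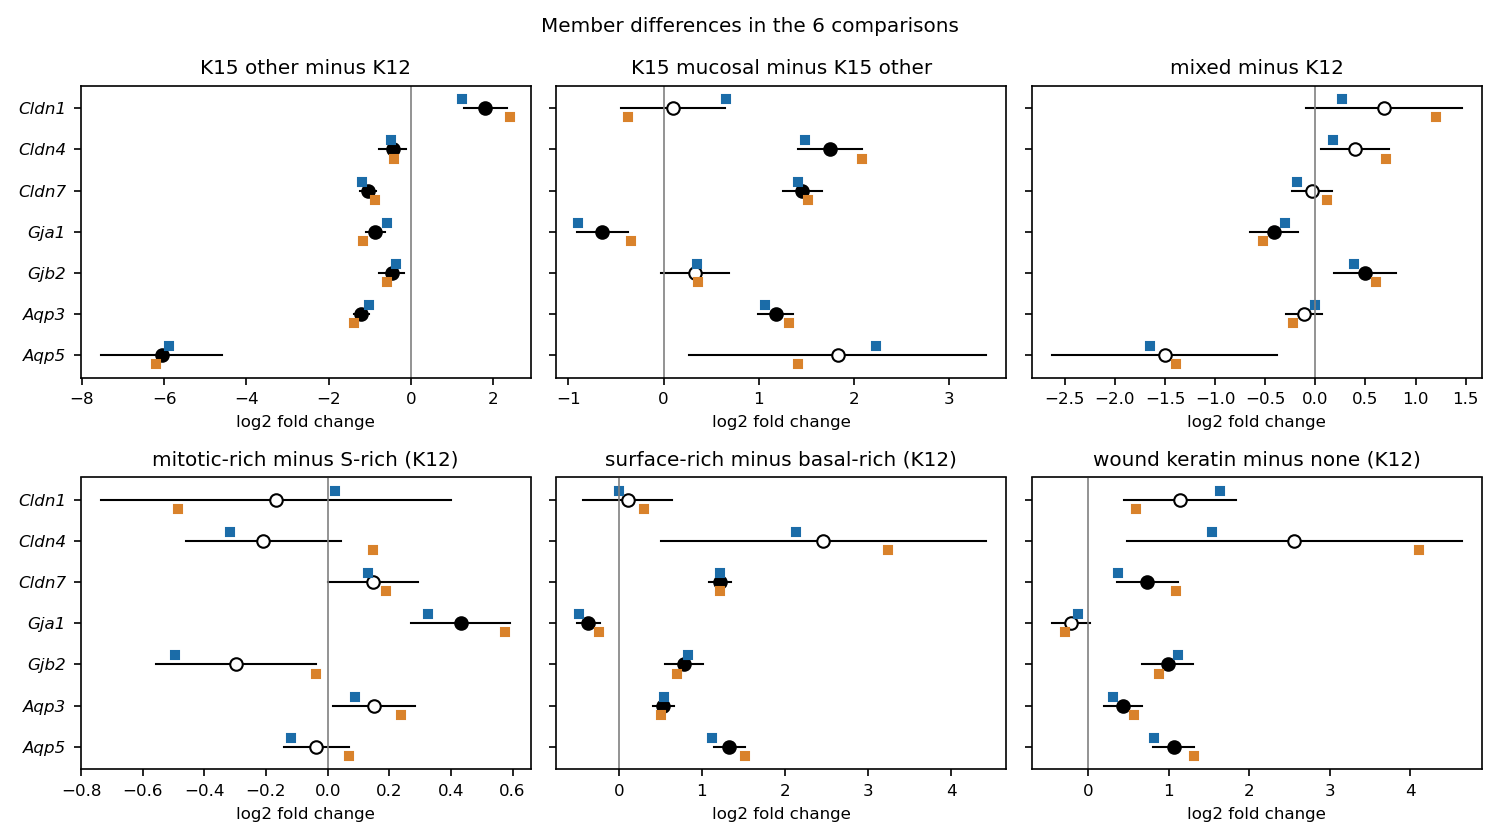
Log2 fold changes of the 7 tested members in each comparison (circles, with 95% intervals as lines), filled where the edgeR adjusted p was under 0.05. Blue and orange squares give the difference within library 1 and library 2, and the horizontal scales differ between panels. Aqp5 stands at -6.06 in the first panel, and Gja1 is the member that fell in the surface comparison while Cldn7, Aqp5, Gjb2 and Aqp3 rose.

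Within the Krt12 class, cells were ranked by the share of mitotic genes in their mitotic and S-phase UMIs, and the highest of 3 equal classes was compared with the lowest. Gja1 was the only member called, against 27.7% of all genes tested (12% higher and 15.7% lower). It stood at 330 and 298 CPM in mitotic-rich cells and 249 and 189 CPM in S-rich cells, with 261 and 208 CPM between, and the end classes did not overlap. The log2 fold change was 0.43 (SE 0.077, edgeR adjusted p = 0.000185), from 0.33 and 0.57. The other 6 tested members had intervals of -0.73 to 0.40 for Cldn1, -0.46 to 0.042 for Cldn4, 0.0028 to 0.29 for Cldn7, -0.56 to -0.037 for Gjb2, 0.018 to 0.28 for Aqp3 and -0.14 to 0.070 for Aqp5. Wound keratin RNA was lower in the mitotic-rich cells (1222 and 651 CPM against 2974 and 783 CPM), and without wound keratin cells Gja1 was at 0.68 and still called. Without the library block its call was lost (0.42).

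Within the same Krt12 class, cells were ranked by the share of surface genes, such as Lypd3 and Krtdap, in their surface and basal genes, such as the integrins. Cldn7, Aqp5, Gjb2 and Aqp3 rose and Gja1 fell in the surface-rich cells, 5 calls among 7 tested members against 15.4% of all genes tested (9.39% higher and 6.04% lower). Cldn7 went from 196 and 208 CPM in basal-rich cells through 263 and 266 CPM to 445 and 469 CPM in surface-rich cells, a log2 fold change of 1.22 (SE 0.064, edgeR adjusted p = 6.36e-13), from 1.22 and 1.21 in the libraries. Aqp5 went from 1575 and 1830 CPM through 2147 and 2602 CPM to 3344 and 5121 CPM, a rise of 1.33 (SE 0.084, edgeR adjusted p = 6.46e-07). Aqp3 rose by 0.53 (SE 0.061, edgeR adjusted p = 4.90e-07), from 415 and 473 CPM to 591 and 657 CPM.

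Gjb2 went from 37.4 and 34.3 CPM to 65.3 and 54.1 CPM, a rise of 0.78 (SE 0.11, edgeR adjusted p = 1.40e-05), and Gja1 went from 315 and 235 CPM to 220 and 193 CPM, a log2 fold change of -0.37 (SE 0.069, edgeR adjusted p = 0.000435). These connexins thus went opposite ways between the end classes. In the middle class Gja1 was at 300 and 257 CPM, which in library 2 was above its basal-rich level. Surface-rich cells held more wound keratin RNA, 3930 and 2375 CPM against 1169 and 197 CPM. With wound keratin cells left out, Gjb2 was at 0.080 and Gja1 at 0.094, neither called, while Cldn7, Aqp5 and Aqp3 were still called at the smaller values of 0.62, 0.83 and 0.28. Thinning also ended the calls for Gjb2 (0.63) and Gja1 (-0.25). Without the library block the calls for Gjb2, Gja1 and Aqp3 were lost, and with DESeq2 that for Gja1 was lost.

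Cldn4 had the largest fold of the members along this axis, from 40.1 and 8.86 CPM to 171 and 82.1 CPM, and the end classes did not overlap. Its log2 fold change of 2.46 (95% interval 0.50 to 4.42) missed the threshold in edgeR (adjusted p = 0.131) and was 2.13 in library 1 and 3.25 in library 2. It passed in DESeq2 (2.74) and without wound keratin cells (1.26), and the adjusted p ranged from 0.000117 to 0.544 over the alternatives. Gjb6, untested after the filter, had 0 and 3 UMIs in basal-rich cells, 0 and 2 in the middle and 9 and 13 in surface-rich cells. Without the filter its log2 fold change was 2.66 (SE 0.84, edgeR adjusted p = 0.0181). In the other comparisons its edgeR adjusted p without the filter lay between 0.0837 and 0.948. Cldn1 had an interval of -0.43 to 0.64.

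Of 20 tested tight junction genes 10 rose and 3 fell in surface-rich cells, with Tjp3 (2.05), Magi3 (0.72), Tjp1 (0.37) and F11r (0.32) higher and Pmp22 (-0.49) lower. Of 17 tested desmosome and adherens genes 13 rose and none fell, led by Nectin4 (2.85), Dsc2 (1.43), Pkp1 (1.13) and Jup (0.92). The members' median was 0.78, and the medians of the tight junction and the desmosome lists were 0.35 and 0.56, against -0.0081 over all genes. Members and lists were chosen with earlier results of these data known, so these medians are a description.

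Finally, Krt12 cells with at least 3 UMIs of Krt16, Krt6a and Krt6b, keratins that epithelia switch on in wounds, were compared with those holding none. Gjb2, Aqp5, Cldn7 and Aqp3 rose, 4 calls among 7 tested members against 7.81% of all genes tested (4.58% higher and 3.23% lower). Gjb2 went from 29.3 and 33.6 CPM through 43.7 and 45.1 CPM to 61.5 and 59.3 CPM, with no overlap, and rose by 0.99 (SE 0.14, edgeR adjusted p = 0.00295). Aqp5 went from 1671 and 2172 CPM to 2858 and 5193 CPM, a rise of 1.06 (SE 0.11, edgeR adjusted p = 0.000606). Cldn7 rose by 0.74 (SE 0.17, edgeR adjusted p = 0.0300), from 264 and 236 CPM to 330 and 484 CPM, by 0.37 in library 1 and 1.09 in library 2. Aqp3 rose by 0.44 (SE 0.11, edgeR adjusted p = 0.0355), a call that DESeq2 did not make.

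Cldn4 went from 44.3 and 5.59 CPM through 85.4 and 17.3 CPM to 124 and 93.2 CPM. The end classes did not overlap, but its log2 fold change of 2.56 (95% interval 0.49 to 4.64) was 1.54 in library 1 and 4.11 in library 2 and missed the threshold in edgeR (adjusted p = 0.154, from 0.0348 to 0.525 over the alternatives). Cells with no wound keratin UMI thus held unlike Cldn4 levels in the libraries. Their immediate early RNA was 7920 CPM in library 1 and 3206 CPM in library 2, whose part in the Cldn4 levels was not tested. Cldn1, at 13.2 and 6.89 CPM against 4.37 and 4.72 CPM, had a log2 fold change of 1.14 (95% interval 0.44 to 1.84, edgeR adjusted p = 0.0540) that passed the threshold without a filter on low counts, with a 10% mitochondrial limit and with a limit of 5 wound keratin UMIs. Gja1, at 268 and 195 CPM against 303 and 247 CPM, had an interval of -0.45 to 0.029.

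**Figure D4:**
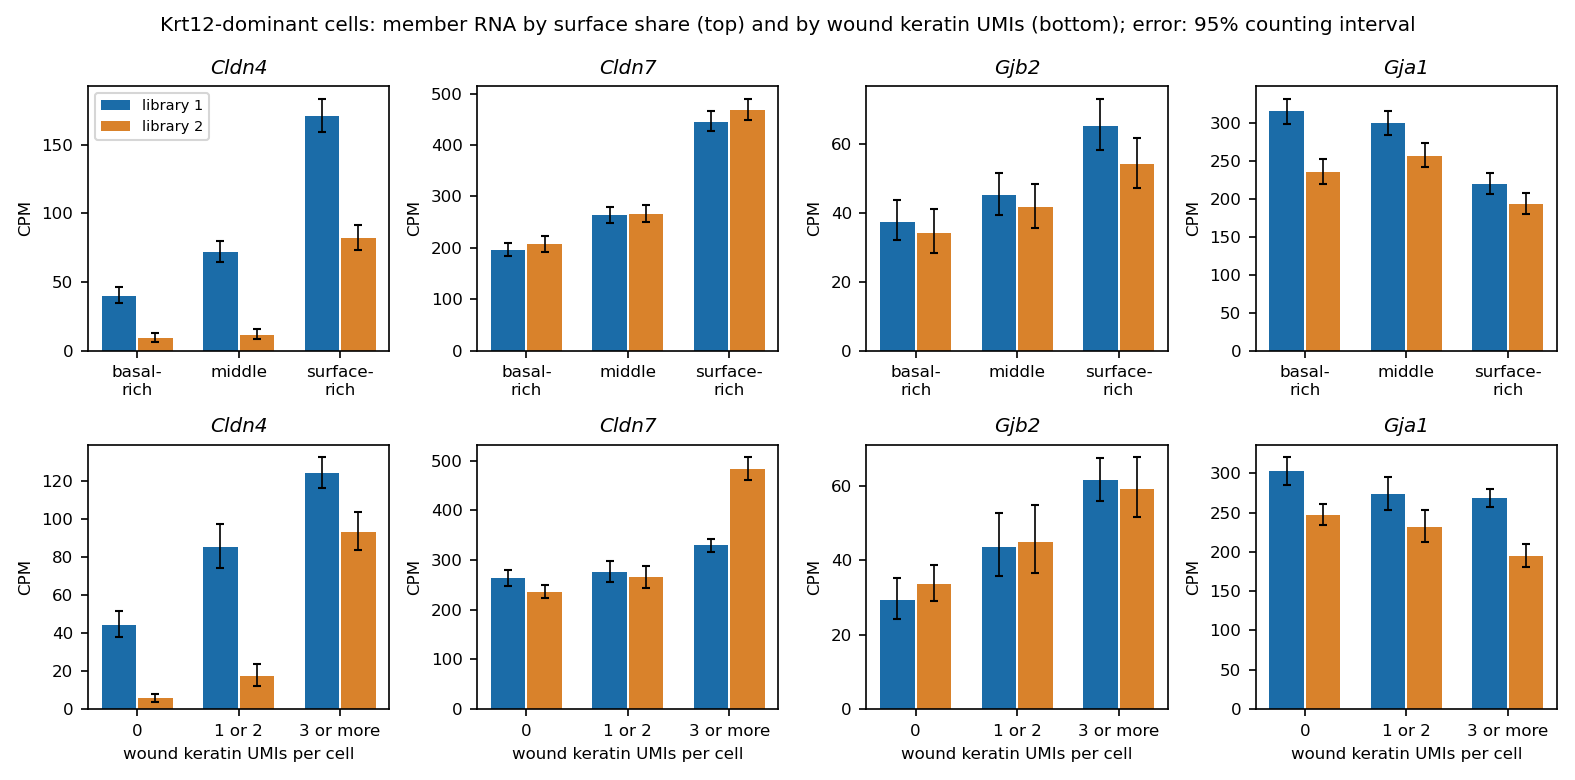
RNA of Cldn4, Cldn7, Gjb2 and Gja1 (CPM, 95% counting intervals) in Krt12 class cells, by class of the surface share (top) and by wound keratin UMIs per cell (bottom), for each library. Cldn4 in library 2 goes from 5.59 CPM without wound keratin UMIs to 93.2 CPM with 3 or more. Of the 4 members only Gja1 has its own lowest level in the surface-rich and the wound-keratin cells of both libraries. Its fall in the wound-keratin cells was not called.

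The wound-keratin cells were deeper (median 7442 and 7396 UMIs against 4968 and 5988) and held more surface RNA (1722 and 3466 CPM against 1224 and 985 CPM) and less mitotic RNA (3720 and 3450 CPM against 5556 and 5168 CPM). With cells thinned to 2000 UMIs the 4 calls held, at 1.09 for Gjb2, 1.20 for Aqp5, 0.91 for Cldn7 and 0.48 for Aqp3. The part of surface and mitotic RNA in these values was not tested. Of 19 tested tight junction genes 7 rose and 1 fell, with Tjp3 (1.24) and Cldnd1 (0.59) higher and Pmp22 (-0.70) lower. Of 20 tested desmosome and adherens genes 9 rose and none fell, among them Nectin4 (1.84), Dsc2 (1.29), Dsg3 (1.24) and Pkp1 (1.06). None of the 4 tested gap junction genes beside the members was called.

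The members were then looked at in the same cells of the Krt12 class, thinned to 2000 UMIs. Cldn7 was found more often in cells with Cldn4 than in cells without: among cells with a Cldn4 UMI, 50.9% (exact 95% interval 44.9% to 56.8%) in library 1 and 62.6% (51.9% to 72.6%) in library 2 had a Cldn7 UMI, against 39.2% (36.9% to 41.6%) and 40.8% (38.3% to 43.3%) of the cells without. The other 4 pairs examined had overlapping intervals in at least 1 library. Gjb2 was found in 8.09% and 8.29% of cells with a Gja1 UMI and in 7.93% and 8.53% of cells without. Aqp5 was found in 91.7% and 96.0% of cells with an Aqp3 UMI and in 88.6% and 91.7% of cells without. After thinning only 2 and 5 cells had a Gjb6 UMI, too few to judge its pairing with Gjb2. No cell then had both, where independence would give 0.16 and 0.42 cells. Without thinning 4 and 11 cells had both, where independence would give 1.74 and 3.91, with depth not evened out. The intervals cover counting error over cells of 1 library and not the spread between animals.

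Genes with the most similar profile over the 8 library and class sums were found by Pearson's r of log2 CPM, among 5825 or 5826 genes of at least 20 CPM. The 8 points share libraries and depth, so r is a description. Aqp5 was most like Mpst, Slco3a1 and Rnf152 (r = 0.99, 0.99 and 0.98). Aqp3 was most like Ifi202b, Lypd3 and Clic3 (0.99, 0.98 and 0.98), and Cldn7 like Gsta4 and the cornified envelope genes Evpl and Ppl (0.98, 0.97 and 0.97). Gja1 was most like Rfc2 and Pola1, which replicate DNA, and Mpp6 (0.99, 0.98 and 0.98). Cldn4 was most like Zfand5, Cdc42 and Pls3 (0.98, 0.96 and 0.94), Cldn1 like Nt5c, Mcc and Foxc1 (0.97, 0.96 and 0.96), and Gjb2 like Top1, Ipo5 and D17Wsu92e (0.95, 0.95 and 0.92). Between members r was highest for Cldn7 with Aqp3 (0.86) and lowest for Cldn1 with Aqp5 (-0.87).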

How the data were processed

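Single-cell RNA-seq counts came from sorted corneal epithelial cells of mice with the reporter. The deposited table held raw UMI counts per gene and barcode. The submitters' processing notes name Cell Ranger 3.1.0 and Seurat 5.0.0 and the builds GRCm38 and mm10, with no role for either. How cells were called is not given in the sources used here. Barcode suffixes were taken as the libraries, with no link to the labelled replicate numbers.

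Cells with at least 500 genes and under 20% mitochondrial UMIs were kept (475 barcodes had fewer genes and 311 a higher share), giving 18773893 and 17796678 UMIs. Scrublet (scanpy 1.11.5) called too few doublets to have worked, so doublets were kept in. UMI sums of each library and class entered edgeR 4.0.16 (robust quasi-likelihood, TMM, filterByExpr; R 4.3.3) with the library as a block, because sums of 1 library come from 1 sample. The keratin classes made 1 fit of 8 sums with 3 residual degrees of freedom, and each comparison within the Krt12 class a fit of 6 sums with 2. Surface and mitotic shares used cells with at least 5 list UMIs, in 3 equal classes per library. Genes that define classes were left out of the results.

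DESeq2 1.42.0, other normalization, filters, limits, thinning and doublet removal were alternatives. Leaving out wound keratin cells was chosen after seeing the data. The members, gene lists and tests were chosen with earlier results of these data known. All 8 members are named, and of the other list genes those past the threshold with a mean of at least 20 CPM, at most 4 per direction, list and comparison; some that met this rule are not reported here. In simulated counts 200 genes were given a log2 change of 1. The fit recovered 72% for the Krt15 against the Krt12 class (10412 genes) and 62% for the mucosal against the Krt15 class (10412 genes). It recovered 60% for the mixed class (10412 genes), 79% for mitotic (10748 genes), 78.5% for surface (10805 genes) and 70.5% for wound keratin (10655 genes). Between 4.24% and 15.1% of those calls were false, the most in the wound keratin comparison. Apart from the changed genes, the simulated counts had no library effect and no difference between classes. These shares are therefore not error rates of the reported calls. Intervals on CPM are exact Poisson and on shares exact binomial, and cover counting error only. Gene positions are from GENCODE M21.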

Additional observations from a re-analysis of the deposited data

How the results depend on the processing

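Over the alternatives, 377 of the member values kept their direction and side of the threshold, 39 lost a call, 13 gained a call and 7 reversed. Without the replicate block (the library left out of the model), which ended 14 member calls, the number of members called fell from 7 to 4 for the Krt15 class (without Cldn4, Gja1 and Gjb2), from 4 to 3 for the mucosal class (without Cldn4 and Gja1 and with Aqp5), from 2 to 0 for the mixed class, from 1 to 0 for the mitotic comparison, from 5 to 2 for surface and from 4 to 1 for wound keratin. The mixed class had 1 member called with DESeq2 (Aqp5, in place of Gja1 and Gjb2), 1 with no filter, 1 with 5 mucosal keratin UMIs, 0 with at least 10 keratin UMIs and 0 with thinned cells. Surface had 3 members called with thinned cells, and the mitotic comparison gained Gjb2, for 2 in all, without the top 3% of doublet scores. Without wound keratin cells the mucosal comparison had 0 members called. Unthinned cells gave 3 pairs in place of 1.

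The reversed values were Cldn4 at 0.46 (Krt15) and -0.19 (mixed), Cldn1 at -0.22 (mucosal), Aqp5 at 0.023 (mitotic) and Gja1 at 0.094 (surface) without wound keratin cells, and Cldn1 at -0.31 (mucosal) and Cldn4 at 0.095 (mitotic) with thinned cells. Of these only Cldn4 in the Krt15 class and Gja1 in the surface comparison were called at first, and the cause was not tested. Leaving out a library leaves 1 sum per class and no test, and the values within each library stand beside the results. Over the alternatives the number of all genes called higher and lower ranged from 801 to 1635 and 713 to 1845 for the Krt15 class (1592 and 1552 as reported), from 5 to 817 and 0 to 584 for the mucosal class (702 and 493), and from 84 to 529 and 23 to 543 for the mixed class (467 and 291). The ranges were 275 to 1363 and 396 to 1720 for mitotic (1289 and 1681), 124 to 1118 and 20 to 751 for surface (1012 and 651), and 114 to 889 and 50 to 565 for wound keratin (488 and 344). Calls in the tight junction list ranged from 0 to 13 for the mucosal class (11 as reported), 1 to 4 for mixed (3), 1 to 6 for mitotic (6), 0 to 13 for surface (13) and 0 to 11 for wound keratin (8). Those in the desmosome list ranged from 9 to 15 for the Krt15 class (15), 0 to 15 for mucosal (13), 0 to 6 for mixed (6), 1 to 5 for mitotic (5), 6 to 13 for surface (13) and 5 to 11 for wound keratin (9). In the gap junction list they ranged from 0 to 3 for mucosal (3), 0 to 1 for mitotic (1) and 0 to 1 for wound keratin (0), and in the aquaporin list from 0 to 2 for the Krt15 class (0), 0 to 1 for mixed (0) and 0 to 1 for surface (1). Depth limits Gjb6 and Cldn1 most, and with 2 libraries the spread between animals is not known.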

Other observations

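The 59 and 57 unclassed cells, shallow at a median of 1573 and 1331 UMIs, belong to no comparison. They held Cldn4 at 191 CPM (26 UMIs) in library 1 and 11.4 CPM (1 UMI) in library 2, Aqp3 at 125 and 216 CPM, Gja1 at 236 and 114 CPM and Aqp5 at 199 and 467 CPM. Gjb6 was not detected in them. Immune markers summed to 1781 CPM in library 1 and 5262 CPM in library 2 of these cells.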
